A study of Mus musculus with 4 samples.

Results

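The genes described are 36 mouse genes of acid secretion and lysosomal digestion, chosen by symbol. They comprise 22 genes of the vacuolar-type proton ATPase (V-ATPase), 12 cathepsins, and the lysosomal membrane glycoproteins Lamp1 and Lamp2. All 36 were present among the 55416 features counted, and their levels are given by day and by cell class, for osteoclasts against macrophages and against other cells.

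The cells came from the femoral epiphysis, the end of the thigh bone, of wild-type mice collected on postnatal days 7, 8, 10 and 12. One droplet single-cell library was made at each age, so n = 1 library per day, with no treatment and no mutant allele. The labels name no strain, sex or number of animals per library. The protocol in the labels names a different tissue, bowel cancer, at the digestion step, so whether that step applies to the epiphysis is not known.

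The V-ATPase is a rotary proton pump. Its peripheral V1 sector hydrolyses ATP in the cytosol, and its membrane V0 sector carries protons into lysosomes and endosomes. Several subunits have paralogs, and these direct the pump to different membranes: in osteoclasts a pump with the a3 subunit (Tcirg1) and the d2 subunit (Atp6v0d2) reaches the ruffled border and acidifies the bone surface. Cathepsins are proteases that work mostly in acid compartments. Cathepsin K, secreted by osteoclasts, cleaves bone collagen, whereas cathepsin S and cathepsin B serve protein breakdown and antigen processing in macrophages.

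After filters on cells, 11309, 11464, 10028 and 16254 cells remained on days 7, 8, 10 and 12, and their median counts of unique molecular identifiers (UMIs) were 3103, 3168.5, 7706.5 and 6563.5. Cells were assigned to classes by marker genes, and no member was a marker. The osteoclast gate rests on 8 markers including Acp5, Mmp9, Ocstamp and Calcr. Acp5 and Mmp9 gave the most marker UMIs on each day, and Calcr the fewest. This gate held 24, 79, 107 and 765 cells on the 4 days, with 277460 to 14092553 UMIs per day. The macrophage gate, which rests on 8 markers including C1qa, Mrc1 and Adgre1, held 63, 323, 191 and 375 cells. All other gated cells of a library formed the third group. It was mostly chondrocytes on days 7 and 8 (94.4 and 77.5% of cells kept). On days 10 and 12 it was a mixture of 15 classes (9.24 and 27.7% chondrocytes).

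The 8 osteoclast markers summed to 7945 to 19304 counts per 1000000 UMIs (CPM) in osteoclasts, against 74.4 to 205 CPM in macrophages. The 8 macrophage markers summed to 14.4 to 66.8 CPM in osteoclasts, against 6341 to 7836 CPM in macrophages. At most 4 cells of a library passed both gates, and such cells were left out. Cells passing the macrophage and the monocyte gate numbered 4, 14, 74 and 88 on days 7, 8, 10 and 12, and were left out too. Monocyte markers summed to 866 to 2318 CPM in the macrophages kept, against 10.8 to 65.5 CPM in osteoclasts. For osteoclasts the most cells shared with another gate were 24, with the osteoblast lineage on day 12. Chondrocyte markers summed to 94.5 to 2044 CPM in osteoclasts and 155 to 3193 CPM in macrophages, lowest on day 10 in both. Without cells holding 50 or more chondrocyte-marker UMIs per 10000, a limit chosen after seeing the data, 16 members were higher and 8 lower in osteoclasts than in macrophages, as with them, and the log2 differences were 7.62 for Ctsk and 2.32 for Tcirg1. Between 62 and 240 cell barcodes were shared by each pair of libraries, and 1, 2, 6 and 23 gated osteoclasts carried one on days 7, 8, 10 and 12, as did 1, 3, 4 and 10 gated macrophages. Leaving out such cells changed no call among the 31 members in the comparison of osteoclasts with macrophages, and changed the sign of Ctsd, which was not called.

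The first question was how the pump and the proteases differed between osteoclasts and macrophages, both of which descend from the myeloid lineage. Osteoclasts carried more RNA of 15 of the 18 V-ATPase genes tested and of Ctsk, and less of Atp6v0a1, 5 cathepsins and both LAMP genes. Of the 31 members that passed the filter on low counts, 16 were higher in osteoclasts, 8 were lower and 7 did not pass the test (edgeR quasi-likelihood test on UMIs summed per library and class, with the library as block and Benjamini-Hochberg adjusted p under 0.05). Over all 10888 genes tested, 36.6% were called, with 17.2% higher and 19.4% lower in osteoclasts. The median log2 difference was 0.80 over the 31 members and -0.02 over all genes tested. The 5 members not tested, Atp6v0e2, Atp6v1b1, Atp6v1c2, Atp6v1g2 and Ctsw, had at most 26 UMIs in any osteoclast or macrophage sum.

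Each class gave 1 sum per library, so these p-values measure the spread between 4 libraries of different ages, whose animals are not described. Fewer transcripts of one gene among more of others cannot be told apart from fewer transcripts per cell, because CPM is a share of all UMIs. UMIs count captured 3' ends, 1 per molecule, and are not scaled by transcript length, so levels set side by side between genes assume that each is captured equally well.

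**Figure D1:**
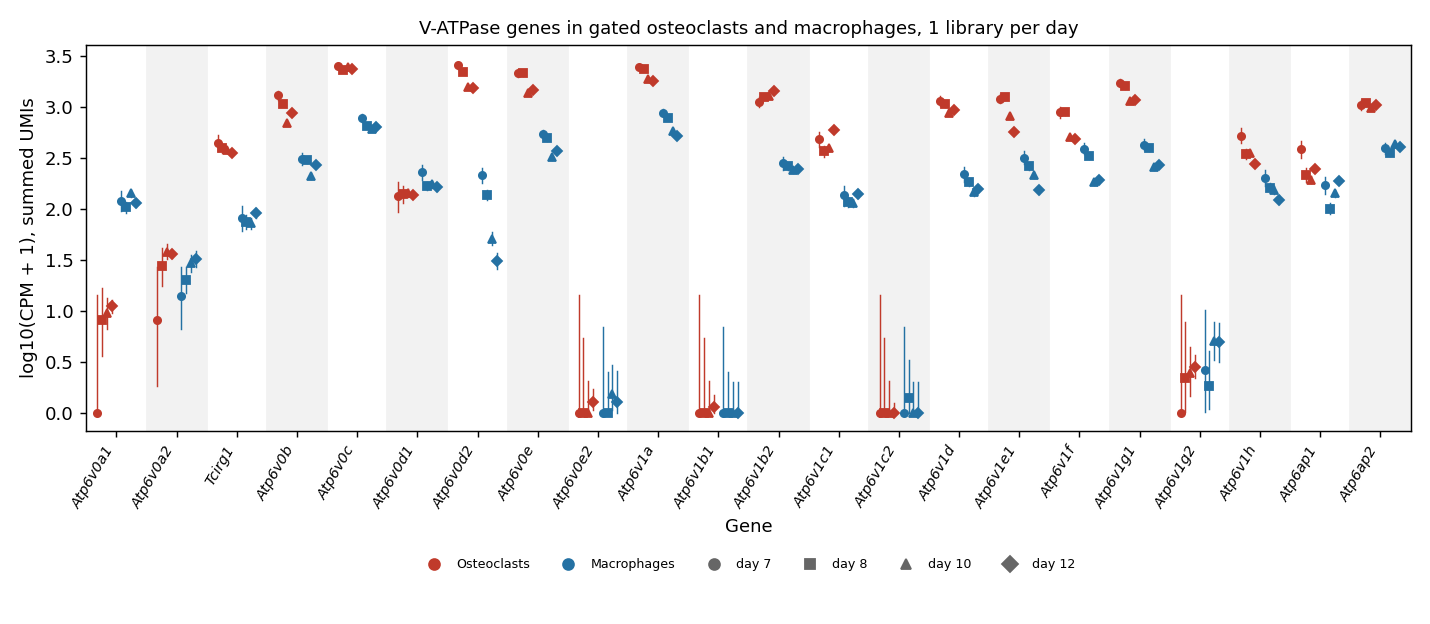
Levels of the 22 V-ATPase genes, as log10(CPM + 1), in gated osteoclasts (red, left of each pair) and macrophages (blue, right). Each point is 1 library, with a shape per day, and bars are exact 95% Poisson intervals for counting error; for 15 genes all 4 osteoclast points lie above all 4 macrophage points.

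The V0 sector holds the membrane rotor and the stator arm. The a subunit, the stator arm that carries protons through the membrane, was almost a single isoform in osteoclasts among the members. Tcirg1, which encodes a3, had 443, 392, 383 and 357 CPM in osteoclasts on days 7, 8, 10 and 12, against 80.9, 74.0, 72.2 and 91.4 CPM in macrophages. Every osteoclast library was above every macrophage library, and the log2 difference was 2.35 ± 0.15 (SE; edgeR adjusted p = 1.4e-06), a 5.09-fold higher level.

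Atp6v0a1, which encodes a1, the isoform best known from neurons, had the reverse pattern. It had 0, 7.29, 8.62 and 10.1 CPM in osteoclasts, against 120.5, 103, 142 and 114 CPM in macrophages. The groups did not overlap, and the log2 difference was -3.78 ± 0.26 (SE; edgeR adjusted p = 2.5e-06). On day 7 the osteoclasts gave no Atp6v0a1 UMI. Against a limit of 3 counts (10.8 CPM), the macrophage level of 120.5 CPM was 11.1-fold higher. This value leaves out the counting error of the macrophages. The counting interval of the day 7 log2 ratio of osteoclasts over macrophages had an upper end of -3.14, which allows a smaller difference. Atp6v0a2, which encodes a2, the isoform of the Golgi and endosomes, had 7.21, 26.7, 37.5 and 35.5 CPM in osteoclasts, against 13.2, 19.5, 28.5 and 31.9 CPM in macrophages. The groups overlapped and the test was not passed (log2 difference 0.31 ± 0.21, edgeR adjusted p = 0.29).

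The d subunit couples the rotor to the central stalk, and it showed the largest contrast of the pump. Atp6v0d2 had 2559, 2221, 1582 and 1535 CPM in osteoclasts, against 215, 136, 50.3 and 30.2 CPM in macrophages. The groups were far apart, with a log2 difference of 4.61 ± 0.33 (SE; edgeR adjusted p = 3.3e-06), or 24.4-fold. Its ubiquitous paralog Atp6v0d1 had 133, 140, 142 and 135 CPM in osteoclasts, against 229, 168, 175 and 164 CPM in macrophages. All 4 osteoclast libraries were below all 4 macrophage libraries, yet the difference did not pass the test over all genes (log2 difference -0.32 ± 0.14, edgeR adjusted p = 0.11).

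The remaining V0 genes were all higher in osteoclasts. Atp6v0c encodes the main proteolipid of the rotor ring and was the most abundant V-ATPase transcript of the osteoclasts on days 10 and 12, with 2537, 2325, 2495 and 2339 CPM in osteoclasts, against 789, 659, 613 and 631 CPM in macrophages. Atp6v0b, the second type of ring subunit, had a log2 difference of 1.88 ± 0.14. Atp6v0e, a small membrane subunit, had 2162, 2136, 1368 and 1472 CPM in osteoclasts, against 539.6, 497, 320.5 and 369 CPM in macrophages, a log2 difference of 2.10 ± 0.13. Its paralog Atp6v0e2 gave 0, 0, 0 and 4 UMIs in osteoclasts, against 0, 0, 2 and 1 UMIs in macrophages, too few to compare.

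All 8 tested genes of the V1 sector were higher in osteoclasts, with log2 differences of 1.27 to 2.58. The B subunit forms the ATP-hydrolysing ring together with A. Atp6v1b2, the widely expressed B isoform, had 1128, 1242, 1286 and 1442 CPM in osteoclasts, against 281, 262, 239 and 248 CPM in macrophages. The groups did not overlap (log2 difference 2.37 ± 0.15, edgeR adjusted p = 1.4e-06). The other B isoform, Atp6v1b1, known from acid-secreting cells of the kidney and inner ear, gave 2 UMIs over all osteoclasts, both on day 12, and none in macrophages.

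The catalytic A subunit, Atp6v1a, was among the most abundant pump transcripts in both classes. It spanned 1820 to 2476 CPM in osteoclasts and 523 to 885 CPM in macrophages, with a log2 difference of 1.70 ± 0.14. The stalk subunit Atp6v1d, part of the rotating central shaft, had 1157, 1075, 870.1 and 929 CPM in osteoclasts, against 218, 183, 146 and 158 CPM in macrophages. Its log2 difference, 2.58 ± 0.13 (SE; edgeR adjusted p = 5.3e-07), was the largest of the V1 genes.

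The C subunit, which leaves the pump when V1 and V0 come apart, came from Atp6v1c1 alone at this depth. Atp6v1c1 had 487, 367, 394 and 602 CPM in osteoclasts, against 135, 117, 114 and 139.9 CPM in macrophages. Its log2 difference was 1.90 ± 0.14 (SE; edgeR adjusted p = 4.1e-06). Atp6v1c2 gave no UMI in osteoclasts and 1 UMI in macrophages over the 4 libraries.

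Atp6v1g1, a subunit of the peripheral stalk, had 1719, 1604, 1159 and 1167 CPM in osteoclasts, against 429, 397, 258 and 268 CPM in macrophages. The groups did not overlap, and the log2 difference was 2.13 ± 0.13 (SE; edgeR adjusted p = 1.3e-06). Its neuronal paralog Atp6v1g2 gave 0, 1, 5 and 26 UMIs in osteoclasts, against 1, 2, 15 and 14 UMIs in macrophages. Of the other V1 genes, Atp6v1e1 of the peripheral stalk (log2 difference 2.06 ± 0.14), Atp6v1f of the central shaft (1.42 ± 0.13) and Atp6v1h, a regulatory subunit (1.27 ± 0.13), were also higher.

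Both accessory proteins were higher in osteoclasts. Atp6ap2, the prorenin receptor, spanned 971 to 1091 CPM in osteoclasts and 355 to 439 CPM in macrophages, a log2 difference of 1.44 ± 0.14. Atp6ap1 spanned 193 to 386 CPM in osteoclasts and 100.3 to 189 CPM in macrophages, and its log2 difference of 0.80 ± 0.17 was the smallest of the members called higher (edgeR adjusted p = 0.0048). It did not pass the test when every cell was thinned to 1000 UMIs, which left 3 libraries because day 7 then had 15 osteoclasts (edgeR adjusted p = 0.062). Summed over the 22 genes, V-ATPase transcripts were 2.02, 1.88, 1.52 and 1.54% of all osteoclast UMIs on the 4 days. They were 0.572, 0.492, 0.409 and 0.411% of macrophage UMIs, and 0.133, 0.148, 0.129 and 0.156% of the UMIs of other cells.

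For 15 of the 22 V-ATPase genes, all 4 osteoclast libraries lay above all 4 macrophage libraries, and for 2 they lay below. Among all genes tested, 11.6% lay wholly above and 14.6% wholly below in CPM.

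The second question was which member paralog filled each subunit, a measure that does not depend on the rest of the transcriptome. Each share is of the UMIs of the member paralogs of that subunit. Tcirg1 made up 98.4, 92.0, 89.3 and 88.7% of the UMIs of the a subunit in osteoclasts on days 7, 8, 10 and 12, against 37.7, 37.6, 29.7 and 38.5% in macrophages. The share was higher in osteoclasts by 56.2 ± 4.9 percentage points (SD, n = 4 libraries), in 4 of 4 libraries. Atp6v0a1 made up 0, 1.71, 2.01 and 2.52% of the a subunit in osteoclasts, against 56.2, 52.5, 58.5 and 48.0% in macrophages, a difference of -52.2 ± 5.2 points in 4 of 4 libraries. In other cells Atp6v0a1 held 35.3 to 52.1%, Atp6v0a2 30.7 to 43.5% and Tcirg1 14.5 to 22.9% of the UMIs of these member paralogs. Atp6v0a4, a further a isoform, is not a member and was left out of the shares. Its log2 difference from other cells was -3.86 ± 0.35 in osteoclasts (edgeR adjusted p = 5.9e-06). In macrophages it was -3.32 ± 0.42 (edgeR adjusted p = 0.00053). The shares in other cells would be lower with Atp6v0a4 counted.

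Atp6v0d2 made up 95.0, 94.1, 91.7 and 91.9% of the UMIs of the d subunit in osteoclasts, against 48.3, 44.6, 22.4 and 15.6% in macrophages. The difference was 60.5 ± 14.6 points (SD, n = 4 libraries), in the same direction in 4 of 4 libraries. The exact permutation test of signs over 4 libraries, two-sided, gave each of these shares the smallest p that 4 libraries allow, which is above the 0.05 threshold, so none of them passed it. The e, B, C and G subunits were made almost wholly from 1 paralog in both classes, with mean shares of 99.9 to 100.0% in osteoclasts and 99.1 to 100.0% in macrophages for Atp6v0e, Atp6v1b2, Atp6v1c1 and Atp6v1g1.

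**Figure D2:**
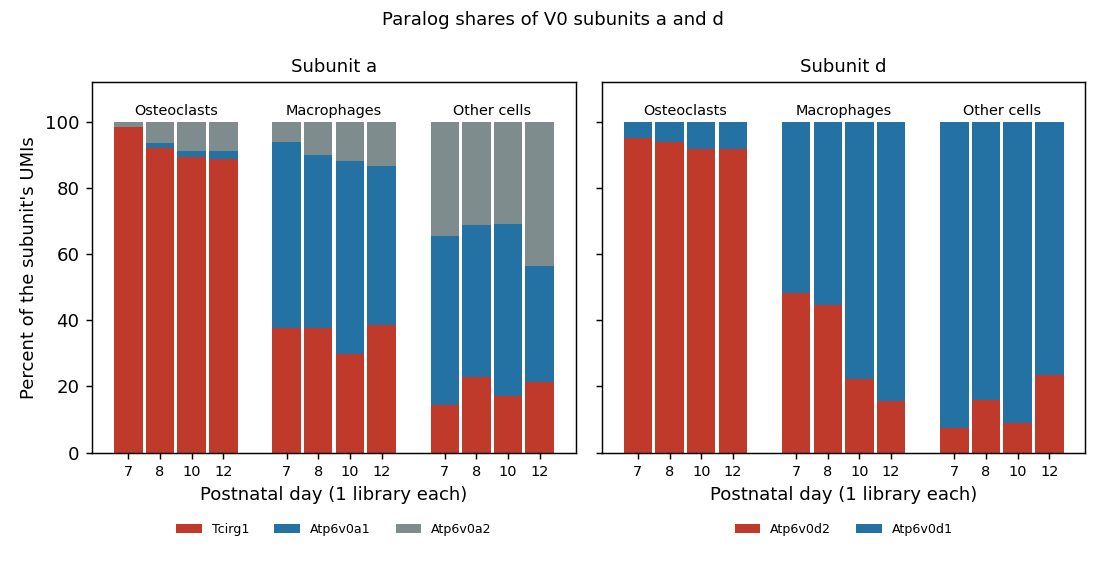
Percent of UMIs of V0 subunit a (left panel) and subunit d (right panel) that came from each member paralog, in osteoclasts, macrophages and other cells. Each bar is 1 library, and shares are of the UMIs of the member paralogs, without Atp6v0a4. Tcirg1 and Atp6v0d2, in red, fill 88.7 to 98.4% and 91.7 to 95.0% of their subunit in osteoclasts, and the Atp6v0d2 share in macrophages is 48.3% on day 7 and 15.6% on day 12.

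Among the proteases, osteoclasts were dominated by cathepsin K. Ctsk had 12715, 10506, 9741 and 7799 CPM in osteoclasts, against 34.7, 52.9, 94.3 and 72.2 CPM in macrophages. The lowest osteoclast library lay far above the highest macrophage library, and the log2 difference was 7.34 ± 0.33 (SE; edgeR adjusted p = 2.5e-07), or 162-fold. Ctsk supplied 84.4, 80.6, 81.5 and 80.3% of the UMIs of the 12 cathepsins in osteoclasts, against 0.289, 0.487, 0.907 and 0.769% in macrophages. Of the 11 cathepsins tested, Ctsk alone was called higher in osteoclasts, and Ctsz was also called with the gate of 5 markers (edgeR adjusted p = 0.013), a fit of 3 libraries because day 7 then had 14 osteoclasts.

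Ctss, which encodes cathepsin S, a protease of antigen processing, was lower in osteoclasts. It had 151, 149, 247 and 243 CPM in osteoclasts, against 2378, 2232, 2223 and 2056 CPM in macrophages. The groups did not overlap (log2 difference -3.44 ± 0.20, edgeR adjusted p = 8.1e-07). Ctsc, cathepsin C or dipeptidyl peptidase 1, which activates serine proteases of granules, had 39.6, 49.8, 84.4 and 89.1 CPM in osteoclasts, against 1373, 1272, 1660 and 1884 CPM in macrophages. Its log2 difference of -4.48 ± 0.18 was the lowest of all members (edgeR adjusted p = 1.3e-07).

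Cathepsin B gave the most cathepsin UMIs in macrophages. Ctsb spanned 767 to 1190 CPM in osteoclasts and 4204 to 6484 CPM in macrophages, where it supplied 44.8 to 54.1% of cathepsin UMIs, and its log2 difference was -2.38 ± 0.15. Ctsh, an aminopeptidase, and Ctsl, a broad endopeptidase, were also lower in osteoclasts (log2 differences -2.15 ± 0.18 and -1.63 ± 0.14). Leaving out Ctsk, the cathepsins summed to 2357, 2521, 2208 and 1916 CPM in osteoclasts, against 11946, 10805, 10297 and 9314 CPM in macrophages. With Ctsk the sums were close: 15072, 13028, 11948 and 9715 CPM in osteoclasts, against 11981, 10858, 10391 and 9386 CPM in macrophages.

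The 5 other tested cathepsins did not pass the test. Ctsz, a carboxypeptidase, had 322 to 587 CPM in osteoclasts, against 232 to 509.9 CPM in macrophages (log2 difference 0.31 ± 0.13). Ctsa, a carboxypeptidase that protects lysosomal sialidase, had 274 to 307 CPM in osteoclasts, against 223 to 284 CPM in macrophages (0.23 ± 0.14). Ctso had 19.4 to 25.6 CPM in osteoclasts, against 21.5 to 50.1 CPM in macrophages, and Ctsf had 14.3 to 39.6 CPM in osteoclasts, against 6.60 to 27.1 CPM in macrophages. Ctsd, an aspartic protease that lysosomes of most cells hold, gave only 2, 5, 2 and 12 UMIs in osteoclasts, against 3, 16, 3 and 3 UMIs in macrophages. Its level over all cells kept was 0.72 to 2.69 CPM, so its counts say little about any class. The sums and shares of cathepsin UMIs above take Ctsd as it was counted.

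Both LAMP genes, which encode the most abundant glycoproteins of the lysosomal membrane, were lower in osteoclasts. Lamp1 had 72.1, 64.4, 86.5 and 113 CPM in osteoclasts, against 601, 543, 687 and 747 CPM in macrophages. The log2 difference was -2.89 ± 0.15 (SE; edgeR adjusted p = 4.8e-07). Lamp2 spanned 25.2 to 65.1 CPM in osteoclasts and 246 to 504 CPM in macrophages, a log2 difference of -2.67 ± 0.21.

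**Figure D3:**
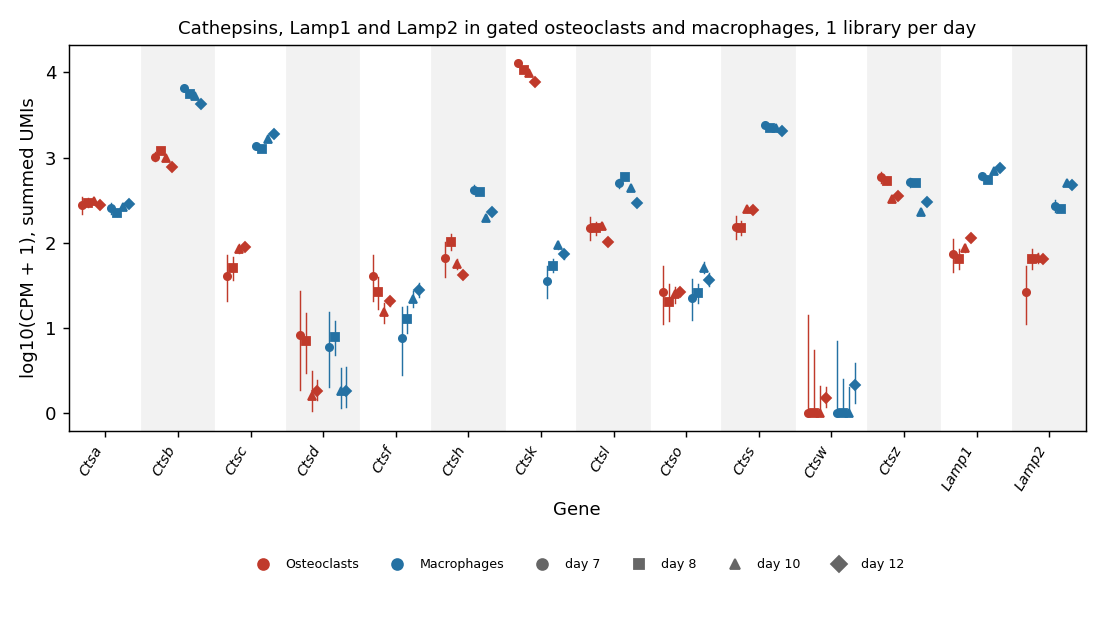
Levels of the 12 cathepsins, Lamp1 and Lamp2, as log10(CPM + 1), in gated osteoclasts (red, left of each pair) and macrophages (blue, right). Each point is 1 library, with a shape per day, and bars are exact 95% Poisson intervals for counting error; Ctsk is the only gene whose 4 osteoclast points all lie above the macrophage points, and 7 genes lie wholly below.

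Ctsk and Ctss are neighbours on chromosome 3, with no other protein-coding gene starting between them in the RefSeq annotation, and their log2 differences had opposite signs. Their promoters are shown, from RefSeq (GRCm38.p6), as 300 bases from 250 before to 50 after the start of the gene, on the plus strand, at chr3:95498960-95499259 for Ctsk and chr3:95526536-95526835 for Ctss. Capitals mark GAGGAA or its reverse complement TTCCTC, a core motif that factors of the ETS family such as PU.1, which myeloid cells need, can bind.
Ctsk: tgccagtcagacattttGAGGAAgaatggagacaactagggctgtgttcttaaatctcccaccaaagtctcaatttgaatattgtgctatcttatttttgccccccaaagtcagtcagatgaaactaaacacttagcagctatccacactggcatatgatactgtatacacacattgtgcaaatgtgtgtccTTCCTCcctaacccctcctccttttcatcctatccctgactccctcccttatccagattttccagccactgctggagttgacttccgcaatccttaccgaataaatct
Ctss: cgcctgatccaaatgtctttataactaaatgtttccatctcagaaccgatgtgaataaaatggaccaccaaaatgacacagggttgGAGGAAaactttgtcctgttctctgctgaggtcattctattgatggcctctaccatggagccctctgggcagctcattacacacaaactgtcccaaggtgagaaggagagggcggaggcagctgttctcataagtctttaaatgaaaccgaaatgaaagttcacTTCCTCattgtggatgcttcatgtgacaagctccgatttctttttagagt
Each of the 2 windows held the motif 2 times. On either strand it was found in 28.3% of all 32851 promoter windows and in 8 of the members' 33 windows. These belong to 8 of the 27 members with a promoter (29.6% of genes, not of windows). The deposited counts use the GRCm39 build, so these positions belong to the older build only.

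A second set of promoters shows the palindrome CACGTG, the E-box bound by the MiT family (Tfeb, Tfe3, Mitf), regulators of lysosomal genes, in capitals. It was found, on both strands alike, in 9 of the members' 33 windows, against 2349 of all 32851 windows (7.15%). The 9 windows belong to 9 of 27 members (33.3% of genes, not of windows). Its extension TCACGTGA, which contains it, was found in 5 of the members' 33 windows, against 320 of all 32851 windows (0.974%). The 5 windows belong to 5 of 27 members (18.5% of genes, not of windows). The windows for Atp6v1a (chr16:44139210-44139509, minus strand) and Atp6v0e (chr17:26676146-26676445, plus strand) belong to genes higher in osteoclasts, and that for Atp6v0d1 (chr8:105566015-105566314, minus strand) to a gene that did not pass the test.
Atp6v1a: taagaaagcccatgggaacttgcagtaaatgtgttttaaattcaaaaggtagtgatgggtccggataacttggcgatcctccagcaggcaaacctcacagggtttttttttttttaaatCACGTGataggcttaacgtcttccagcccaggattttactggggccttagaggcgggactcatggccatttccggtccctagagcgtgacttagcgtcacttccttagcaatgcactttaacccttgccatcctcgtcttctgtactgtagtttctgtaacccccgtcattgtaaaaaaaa
Atp6v0e: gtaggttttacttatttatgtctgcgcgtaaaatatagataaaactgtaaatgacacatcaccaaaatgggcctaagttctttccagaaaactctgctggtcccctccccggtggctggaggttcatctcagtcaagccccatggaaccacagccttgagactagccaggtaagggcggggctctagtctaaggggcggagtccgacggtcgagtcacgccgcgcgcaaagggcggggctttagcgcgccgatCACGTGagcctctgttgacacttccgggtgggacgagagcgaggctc
Atp6v0d1: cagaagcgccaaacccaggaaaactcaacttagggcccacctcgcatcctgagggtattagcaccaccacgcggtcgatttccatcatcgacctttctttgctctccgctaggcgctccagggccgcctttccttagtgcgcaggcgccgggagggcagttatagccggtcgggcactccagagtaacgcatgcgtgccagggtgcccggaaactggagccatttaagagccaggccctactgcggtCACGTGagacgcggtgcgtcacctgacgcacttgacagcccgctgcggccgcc
The 5 members with the longer motif were Atp6v0d1, Atp6v0e, Atp6v1a, Ctsa and Ctsd, of which only Atp6v0e and Atp6v1a were called higher in osteoclasts. A match is a run of letters, not a measured binding site.

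Genes that work beside the pump were set in lists. All 6 genes listed as acid partners were higher in osteoclasts than in macrophages. They were Car2, which makes the protons and bicarbonate (log2 difference 3.73 ± 0.67), Snx10, a sorting nexin (3.32 ± 0.14), Slc4a2, the bicarbonate and chloride exchanger (3.07 ± 0.21), Clcn7, the chloride and proton antiporter (1.55 ± 0.15), Ostm1 and Plekhm1. Against other cells 5 of the 6 were higher in osteoclasts, and Car2 was not called (1.51 ± 0.98, edgeR adjusted p = 0.22). Of 25 other lysosomal enzymes and membrane proteins, 11 were higher in osteoclasts than in macrophages, 6 were lower and 8 did not pass the test. Over all genes tested in that comparison, 17.2% were higher and 19.4% lower. Lower ones included Scarb2, a lysosomal membrane protein (-3.44 ± 0.27), and Lipa, the acid lipase (-3.16 ± 0.18), and higher ones included Glb1, a galactosidase (2.36 ± 0.23). The list's median log2 difference was 0.42, against -0.02 for all genes tested.

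Of 14 genes for V-ATPase assembly and rarer subunits, 8 were tested in osteoclasts against macrophages, of which 2 were higher, 2 lower and 4 not called. For this and the next 3 lists, the shares over all genes tested were 17.2% higher and 19.4% lower. Oxr1 (1.54 ± 0.24) was higher, and Ncoa7 (-1.28 ± 0.24) and Dmxl2 (-1.26 ± 0.25) were lower. Of 11 further cathepsins, processing enzymes and inhibitors, 9 were tested, with 2 higher and 4 lower. Cst7, cystatin F, which inhibits cathepsin C, was higher (4.90 ± 0.46), and Lgmn, legumain, which processes cathepsins, was lower (-3.72 ± 0.17). The other lower ones were Stfa1, Stfa2 and Stfa2l1, stefins with near-identical copies between which reads could be split, so their values are uncertain. Among 4 MiT regulators Mitf alone was called higher (0.65 ± 0.14), and 3 were not called. Of 6 genes of mannose-6-phosphate sorting, 2 were higher, led by Gnptab, the phosphotransferase that tags lysosomal enzymes (2.82 ± 0.16), and 1, Sort1, was lower (-2.30 ± 0.37).

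Against all other gated cells, osteoclasts carried more RNA of 16 of the 19 V-ATPase genes tested and of 6 of the 12 cathepsins. Of 33 members tested, 22 were higher in osteoclasts, 4 were lower and 7 did not pass the test (edgeR, as above), against 51.8% called over all 16446 genes tested, 19.9% higher and 31.9% lower. The median log2 difference was 2.13 over the members and -0.25 over all genes, or -0.44 over all genes with size factors in place of TMM scaling. Atp6v0d2 (log2 difference 7.88 ± 0.52) and Ctsk (6.71 ± 0.41) led, followed by Atp6v1b2 (5.09 ± 0.25) and Tcirg1 (4.89 ± 0.28). The 4 lower members were Ctsw (-3.04 ± 0.70), Atp6v0a1 (-2.07 ± 0.31), Lamp2 (-1.57 ± 0.23) and Lamp1 (-0.77 ± 0.17). Ctsw was not called when the library was not used as a block, nor with DESeq2. With thinned cells, a fit of 3 libraries without day 7, 19 members were higher: Atp6v0d1 (edgeR adjusted p = 0.49), Ctso and Ctss were not called, and the log2 difference of Ctss turned to -0.26, against 1.54 with all UMIs. Ctso was also not called without the day 12 library, and Ctss without the block. Ctsl was not called here but was called lower with size factors, with DESeq2 and without shared barcodes. The other cells were a mixture whose make-up changed with age, so this difference depends on which cells each library held.

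Macrophages also carried more of most members than other cells. Of 32 members tested, 27 were higher in macrophages and 1 lower, against 44.0% called over all 16378 genes tested, 15.6% higher and 28.4% lower. Ctsc (log2 difference 5.10 ± 0.49), Ctss (4.93 ± 0.61) and Ctsb (3.84 ± 0.24) led. Monocytes, which are among the other cells, also held much Ctsc and Ctss. Their median over libraries was 809 CPM for Ctsc, against 1516.5 CPM in macrophages, and 1794 CPM for Ctss, against 2227 CPM. Ctsk was the lower one (-0.88 ± 0.17), and it was not called when the library was not used as a block (edgeR adjusted p = 0.083). With thinned cells 24 members were higher: Atp6v0d2 (edgeR adjusted p = 0.12), Lamp2 (edgeR adjusted p = 0.16) and Atp6v0e were not called. Atp6v0e was also not called without the block (edgeR adjusted p = 0.20). Of the pump genes, Tcirg1 had a log2 difference of 2.38 ± 0.24 and Atp6v1b2 one of 2.59 ± 0.27. The comparison shares its macrophage and other-cell sums with those above.

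Ranking the 15 classes that had sums in at least 2 libraries by median CPM gave the place of each gene in the tissue. Osteoclasts were highest for 18 members and macrophages for 8, and macrophages stood second for 19. For 16 of the 18, the osteoclast libraries did not overlap those of the next class. The exceptions were Ctsa and Ctsz, where the ranges of osteoclasts and macrophages overlapped. The ranking was made for the members alone, so no share over all genes stands beside these counts. They are therefore not read as particular to the members.

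Ctsk ranked highest in osteoclasts with a median of 10123 CPM, followed by cells with tendon or ligament markers (266 CPM, range 219.5 to 299.8), 38.0-fold lower. Macrophages ranked 12th for Ctsk. Atp6v0a1 ranked last of 15 classes in osteoclasts, and Lamp1 and Lamp2 ranked 14th there. Ctsw, a protease of cytotoxic lymphocytes, had 189 and 192 CPM in cells with T or NK markers on days 10 and 12, and at most 3.24 CPM in every other ranked class on those days. Ctsf was highest in erythroid cells (median 49.3 CPM), and Ctsh was highest in monocytes (366 CPM, against 314 CPM in macrophages), where the libraries of the 2 classes overlapped.

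**Figure D4:**
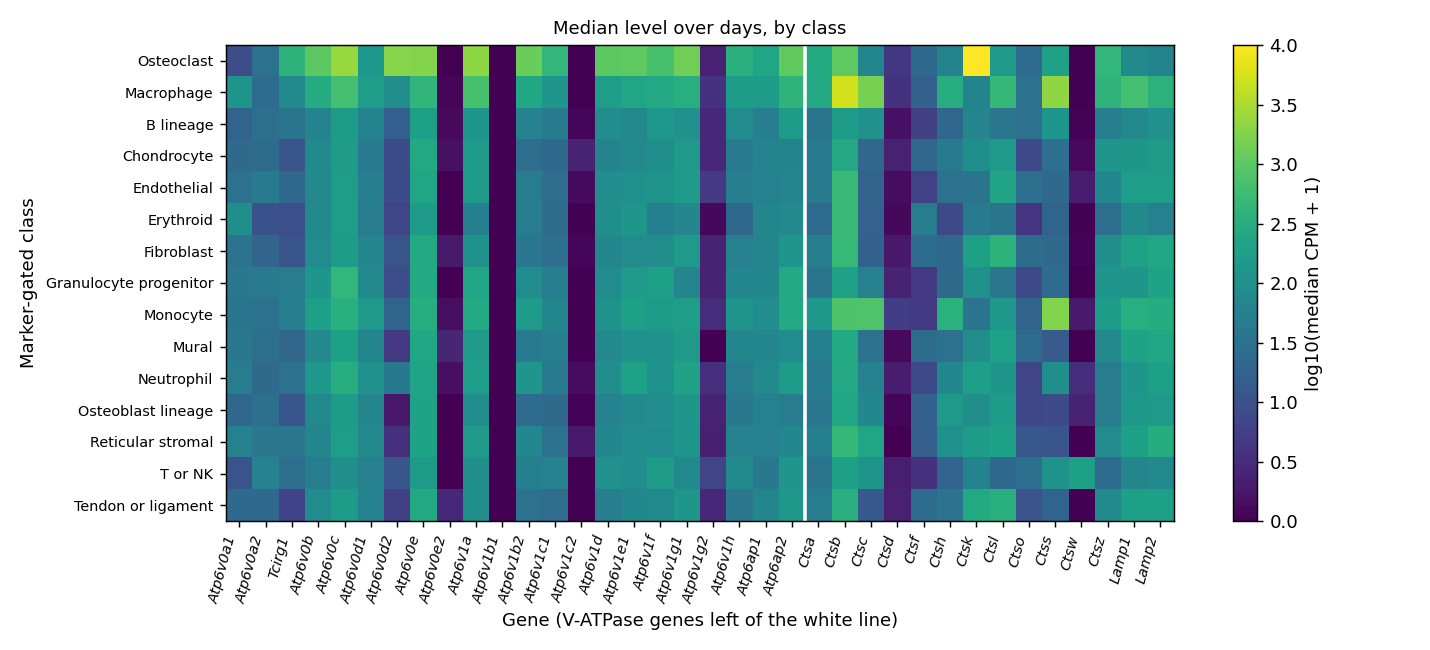
Median CPM over days of the 36 genes in the 15 marker-gated classes with sums in at least 2 libraries, on a log10(median CPM + 1) color scale; osteoclasts are the top line and macrophages the next. Of the V-ATPase genes, left of the white line, 15 are highest in osteoclasts, and Ctsb, Ctsc and Ctss in macrophages.

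A small share of the cells supplied most of the Ctsk and Atp6v0d2 transcripts. Gated osteoclasts gave 0.647, 1.82, 2.59 and 8.45% of the UMIs of the cells kept on days 7, 8, 10 and 12. They gave 61.8, 67.8, 62.0 and 76.9% of the Ctsk UMIs and 67.7, 68.8, 74.3 and 72.1% of the Atp6v0d2 UMIs. The exact 95% binomial interval for Ctsk ran from 60.6 to 63.1% on day 7 and from 76.7 to 77.1% on day 12. Cells in no class or several classes gave another 4.42, 5.91, 18.4 and 11.2% of the Ctsk UMIs. The shares depend on the gate and on how many UMIs each cell gave. With every cell thinned to 1000 UMIs before gating, they were 19.7 to 38.3% for Ctsk. Thinning changes which cells pass the gate and also gives every cell the same weight, and the 2 were not separated.

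For the shared subunits the share was smaller. Tcirg1 came from gated osteoclasts for 24.7, 30.9, 33.9 and 49.3% of its UMIs on the 4 days, and Atp6v0c for 8.76, 17.7, 24.9 and 45.3%. For Ctss the gated osteoclasts gave 1.71, 1.52, 2.96 and 7.91% of UMIs, and macrophages 58.5, 65.0, 28.7 and 16.9%. The gated osteoclasts were 0.212, 0.689, 1.07 and 4.71% of the cells kept, and the share of cells released from bone by digestion need not equal the share in the tissue.

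Levels by day have 1 library each and therefore no test, and intervals cover counting error only. Ctsk over all cells kept was 133, 281, 407 and 858 CPM on days 7, 8, 10 and 12, so it was higher at each later age. Within gated osteoclasts it ran the other way, at 12715 CPM on day 7 (exact 95% Poisson interval 12299 to 13142) and 7799 CPM on day 12 (7753 to 7845). The day 12 level in osteoclasts was 0.613 times that on day 7, while the share of gated osteoclasts among cells was highest on day 12. The summed level of the 8 osteoclast markers that set the gate moved alongside (19304 CPM on day 7, 7945 CPM on day 12), and its part in the Ctsk level was not tested. With cells thinned to 1000 UMIs, osteoclasts had 12796, 11865 and 11683 CPM of Ctsk on days 8, 10 and 12, and day 7 had too few cells. The all-cell values by themselves cannot tell apart more osteoclasts from more Ctsk per osteoclast.

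For the other members, taking 1.5 times as the size to name, 10 of the 31 tested members were lower on day 12 than on day 7 in osteoclasts and 6 were higher, against 16.0% lower and 41.6% higher over all genes tested. Among the 18 V-ATPase genes of these, 5 were lower, Atp6v1e1, Atp6v1h, Atp6v1f, Atp6v0d2 and Atp6ap1, and 2 were higher by the computed level, Atp6v0a1 and Atp6v0a2. No direction is read for these 2: Atp6v0a1 gave no UMI on day 7 and its day 12 level of 10.1 CPM is under the day 7 limit of 10.8 CPM, and Atp6v0a2 rests on 2 UMIs on day 7. Ctsd, counted among the lower members, rests on 2 UMIs on day 7 and 12 on day 12, and the shares over all genes hold such low counts too. Atp6v1e1 had 1211, 1255, 816 and 571 CPM in osteoclasts on the 4 days, and 319, 261, 214 and 154 CPM in macrophages. Its day 12 level was 0.472 times the day 7 level in osteoclasts and 0.483 times in macrophages. Atp6v1b2 and Atp6v1c1 were 1.28 and 1.24 times as high on day 12 as on day 7 in osteoclasts. In macrophages 11 of the 31 members were lower on day 12 by that size and 5 were higher, against 14.2% and 39.0% over all genes.

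Atp6v0d2 in macrophages differed most between days 7 and 12 among the members with over 100 UMIs in macrophages on both days. It was 215 CPM on day 7 (exact 95% Poisson interval 179 to 255, 130 UMIs) and 30.2 CPM on day 12 (24.7 to 36.5, 107 UMIs), 7.11-fold lower on day 12. Gated chondrocytes had 3.41, 8.99, 5.88 and 23.2 CPM on the 4 days. The ratio of Ctsk to Atp6v0d2 UMIs was 4.97, 4.73, 6.16 and 5.08 in osteoclasts on the 4 days, against 0.162, 0.389, 1.87 and 2.39 in macrophages and 14.0, 9.24, 21.1 and 6.85 in other cells. The part of RNA from other cells in the macrophage values was not tested. With cells thinned to 1000 UMIs the macrophage level was 54.5 CPM on day 7, from 55 cells, against 81.1, 36.5 and 25.1 CPM on days 8, 10 and 12.

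**Figure D5:**
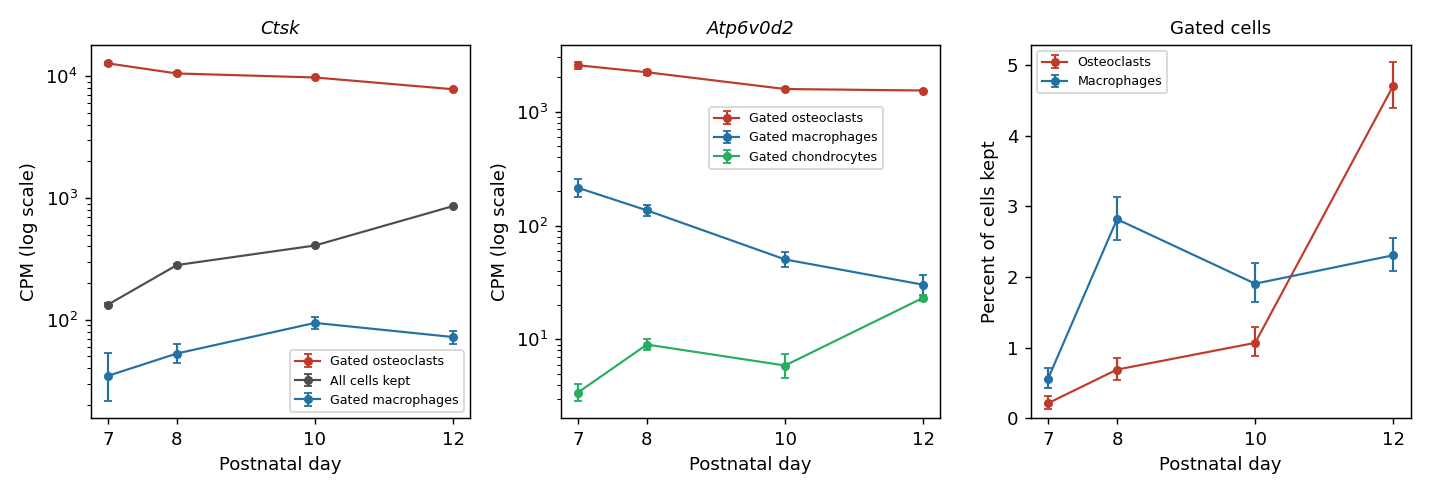
Levels of Ctsk (left) and Atp6v0d2 (middle) in CPM on a log axis, and gated cells as percent of cells kept (right), by postnatal day; each point is 1 library and bars are exact 95% intervals for counting error. Ctsk is 133 CPM on day 7 and 858 CPM on day 12 over all cells, while in gated osteoclasts it is 12715 and 7799 CPM; osteoclasts are 0.212% of cells on day 7 and 4.71% on day 12.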

How the data were processed

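Single-cell RNA from the femoral epiphysis was counted in 4 libraries, 1 for each of postnatal days 7, 8, 10 and 12. The deposited values are UMI counts per gene and barcode, whole numbers that were not normalized, and the submitters' processing notes name the GRCm39 build; no aligner or counter is named in the labels or headers. The libraries held 44218720, 46534365, 132282322 and 169323978 UMIs in 12886, 12469, 10729 and 18108 barcodes, and their number of UMIs limits the precision of each value.

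Cells with at least 500 genes, 1000 UMIs and at most 15% mitochondrial UMIs were kept. A class was assigned when at least 3 of its markers and at least 20 marker UMIs per 10000 were found. Cells passing several classes other than chondrocyte were left out, chondrocyte was given only to cells passing no other class, and no doublet caller was run. This scoring rule was chosen after seeing the data. Between 66.1 and 98.8% of cells received a class. Exact binomial and Poisson intervals are at 95% and cover counting error only.

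UMIs were summed per library and class (at least 20 cells) and tested with edgeR 4.0.16 (R 4.3.3; filterByExpr, TMM, quasi-likelihood, library as block because both sums of a pair come from the same library, two-sided, Benjamini-Hochberg over all genes tested). The step was tested on simulated data for osteoclasts against macrophages, drawn without differences between days. Of 50 genes changed at each size, it called 44 at a log2 difference of -2 and 37 at -1. At 1 it called 40 and at 2 it called 50, with 3 false calls among unchanged genes. A member that was not called may therefore still differ. The SE given with an edgeR log2 difference is its absolute value divided by the square root of the test's F statistic. Alternatives were DESeq2 1.42.0 and its size factors, no filter on low counts, no block, a gate of 5 markers, cells thinned to 1000 UMIs, all deposited barcodes, each library left out, and 2 chosen after seeing the data: leaving out cells with 50 or more chondrocyte-marker UMIs per 10000, and cells whose barcode occurs in another library.

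All 36 members are described. Values per library are given for members with paralogs, the 4 largest and 4 smallest differences among those called, Ctsk and Ctss; list genes are named by size. The members, lists and markers were chosen with earlier results of these data known. Promoters came from RefSeq (GRCm38.p6), where 27 of 36 members matched by symbol. Figures and sums used Python 3.11.15.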

Additional observations from a re-analysis of the deposited data

Results flagged for a closer look

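The log2 ratio of osteoclasts over macrophages was taken per day for the 30 members with UMIs in both classes on all 4 days, and for 4 of them 1 day lay apart from the other 3 (Dixon's test). Chance sets apart about 1 in 20 such groups. Tcirg1 had a ratio of 1.96 on day 12, against 2.41 to 2.45 on the other days. Atp6v0d1 had -0.78 on day 7, against -0.30 to -0.27. Atp6v1d had 2.41 on day 7, against 2.55 to 2.57, and Atp6v1e1 had 2.26 on day 8, against 1.89 to 1.93. The counting intervals of the day 7 ratios, -1.35 to -0.25 for Atp6v0d1 and 2.11 to 2.71 for Atp6v1d, covered the ratios of the other days. For these genes the day that lay apart was therefore within counting error. The intervals for Tcirg1 on day 12 (1.80 to 2.13) and Atp6v1e1 on day 8 (2.12 to 2.41) did not cover them. In all 4 the day that lay apart kept the sign of the others.

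Ctsf, a cysteine protease, was the only member whose daily ratio changed sign with counting intervals clear of 0. Its log2 ratio was 2.59 on day 7 and 1.11 on day 8, against -0.56 on day 10 and -0.47 on day 12. The levels behind it were 39.6, 25.5, 14.3 and 19.6 CPM in osteoclasts, against 6.60, 11.8, 21.0 and 27.1 CPM in macrophages. Only 11 osteoclast UMIs and 4 macrophage UMIs stood behind the day 7 ratio. With 1 library per day the difference between days was not tested. Gated chondrocytes had 27.1, 22.7, 20.4 and 20.5 CPM of Ctsf, and chondrocyte markers in osteoclasts summed to 2044, 1991, 94.5 and 928 CPM; their part in the ratio was not tested.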

How the results depend on the processing

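Counts of members called kept to within 1.5 times in 70 of 72 recomputations, and the other 2 were the members lower in macrophages than in other cells, 3 with no filter on low counts and 0 with no replicate block. Without 1 library at a time, osteoclasts against macrophages gave 16 to 16 members higher and 8 to 8 lower, osteoclasts against other cells 21 to 22 and 3 to 5, and macrophages against other cells 27 to 27 and 1 to 1. The paralog differences then spanned 54.7 to 58.2 points for Tcirg1, -54.5 to -50.8 for Atp6v0a1 and 55.2 to 65.1 for Atp6v0d2. With no replicate block, all-gene calls were 2612 against 3985 with the block for osteoclasts against macrophages, 6495 against 8518 for osteoclasts against other cells and 5466 against 7209 for macrophages against other cells. Among members, the calls lost without the block were Ctss and Ctsw in osteoclasts against other cells, and Atp6v0e and Ctsk in macrophages against other cells. With thinned cells all-gene calls were 1235, 2655 and 3359 (fewer genes tested and, for osteoclasts, no day 7), and for osteoclasts against macrophages they were 3595 with DESeq2. The osteoclast share of Ctsk UMIs on days 7, 8, 10 and 12 was 56.3, 54.2, 56.3 and 60.5% with the stricter gate and 23.5, 27.9, 19.7 and 38.3% with thinned cells, and 66.9% on day 8 and 76.5% on day 12 over all deposited barcodes. That of Atp6v0d2 was 62.3, 52.2, 62.2 and 51.8%, and 29.5, 33.0, 16.6 and 29.1%. Ctsk in osteoclasts on days 8, 10 and 12 was 12947, 12320 and 9973 CPM with the stricter gate and 12796, 11865 and 11683 CPM with thinned cells. Atp6v0d2 in macrophages on days 7, 8 and 10 was 54.5, 81.1 and 36.5 CPM with thinned cells. The cause was not tested. The 24 osteoclasts of day 7 limit every value there.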
